A study of Mus musculus with 10 samples.

Results

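The expression of 10 genes was followed here: 9 genes of major histocompatibility complex (MHC) class I antigen presentation and Cd274, which encodes the immune checkpoint ligand PD-L1. They were chosen by symbol, H2-K1, H2-D1, B2m, Tap1, Tap2, Tapbp, Psmb8, Psmb9, Nlrc5 and Cd274, and all 10 were found among the 46517 genes of the count tables. RNA had been sequenced from tumour cells of mouse malignant peripheral nerve sheath tumours (MPNST), sarcomas of the Schwann cell lineage, that were grown as allografts. There were 5 allograft models, named A to E. From each, GFP+ cells, which express the CGD transgene in the series' terms, and GFP- cells, which do not, were sequenced as 1 library apiece. Wild-type and dead cells had been gated out in the sort. The sources used here give no strain, age, host, driver of the transgene or count of animals per model, and the labels do not expand CGD. The 2 libraries of a model form a pair, so the replicates of the GFP comparison are the 5 models, and p-values measure the spread between these pairs only.

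MHC class I molecules show fragments of a cell's own proteins to CD8 T cells. Proteasomes cut the proteins, the TAP transporter moves the peptides into the endoplasmic reticulum, tapasin helps to load them, and a heavy chain paired with beta-2 microglobulin carries them to the surface. NLRC5 is the transactivator of these genes, interferon gamma raises most of them and PD-L1 too, and reduced class I expression is a known way in which tumour cells escape T cells.

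The 10 genes lie at 4 places in the genome, given here in mm10 with GENCODE vM21. B2m (ENSMUSG00000060802) is on chromosome 2 from 122147686 to 122153083, Nlrc5 (ENSMUSG00000074151) on chromosome 8 from 94434356 to 94527272, and Cd274 (ENSMUSG00000016496) on chromosome 19 from 29367455 to 29388095. The other 7 are in the MHC of chromosome 17, from Tapbp (start 33915899) through H2-K1 (33996017 to 34000347) to H2-D1 (35262730 to 35267499). Psmb9, Tap1, Psmb8 and Tap2 sit side by side in 34335 bases. Psmb9 and Tap1 are on opposite strands and share 212 bases, where reads can be told apart only by strand, which the counts used here respect.

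The stretches before the start sites of H2-K1 and B2m are shown because their protein products form 1 complex. Both are RefSeq sequences of GRCm38.p6, the assembly behind mm10, read 5′ to 3′ on the gene's strand up to the start site, without bases in any annotated exon. Capitals mark matches to the 6 motifs searched on both strands: the interferon response element core, the gamma-activated site, a kappa B site, the enhancer A core, the CCAAT box (CCAAT, or ATTGG on the other strand) and TGACG, the core of the X2 box. The H2-K1 stretch is chr17:34000348-34000597 on the minus strand and the B2m stretch is chr2:122147437-122147685 on the plus strand.
H2-K1: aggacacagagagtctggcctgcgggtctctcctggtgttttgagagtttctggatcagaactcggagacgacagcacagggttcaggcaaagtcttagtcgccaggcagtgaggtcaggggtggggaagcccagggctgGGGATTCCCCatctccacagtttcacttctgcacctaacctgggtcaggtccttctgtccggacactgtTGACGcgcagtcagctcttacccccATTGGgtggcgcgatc
B2m: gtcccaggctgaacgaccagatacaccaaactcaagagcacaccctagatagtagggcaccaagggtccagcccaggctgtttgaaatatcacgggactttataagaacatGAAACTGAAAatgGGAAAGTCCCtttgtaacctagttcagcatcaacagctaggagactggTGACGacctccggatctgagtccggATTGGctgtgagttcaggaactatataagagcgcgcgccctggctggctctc

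RefSeq windows of 250 bases were found for 8 of the 10 genes, and Tap2 and Nlrc5 had no entry. The enhancer A core was found in H2-K1 and H2-D1 and in 0.0853% of the 32841 windows of this length. B2m held the interferon response element core (2.98% of windows) and the kappa B site (0.356%), which do not overlap, and Psmb8 held a gamma-activated site (7.02%). All 250 bases of the Psmb8 window lie in annotated exons, inside the annotated gene, so its match is not upstream of the gene. The windows of Tapbp, Psmb9, Tap1 and H2-D1 also lie wholly in annotated exons. CCAAT and TGACG alone are common, in 33.9% and 17.8% of windows. In H2-K1, H2-D1 and B2m, however, TGACG was followed by ATTGG after exactly 20 bases, a spacing that was searched for after it had been seen and that occurs in 30 windows (0.0913%) of 26 genes. The stretches are chr17:34000359-34000388 (minus strand), chr17:35262993-35263022 and chr2:122147609-122147638, with the letters of both motifs in capitals. The H2-D1 stretch lies inside the annotated gene, since RefSeq places a start site downstream of GENCODE's first base.
H2-K1: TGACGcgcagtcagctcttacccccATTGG
H2-D1: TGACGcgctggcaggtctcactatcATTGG
B2m: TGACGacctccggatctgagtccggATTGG
Such matches describe the letters and are not evidence of binding. Only exact matches to fixed letters were sought, so an unmarked stretch, as in H2-K1 for the interferon response element, is not evidence that an element is absent.

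The libraries held 15978673 to 22082207 reads in genes. Levels are given as CPM, the count scaled to the library's total of reads in genes. Markers that would place the cells were uneven between models and populations. The mesenchymal factor gene Prrx1 stood at 555 to 1086 CPM in every library, and was lower in GFP+ in 5 of 5 pairs (log2 difference -0.29, SE 0.12). The Schwann cell factor gene Sox10 was at 0.434 CPM or less in the 4 libraries of models A and E. In B, C and D it was at 17.1, 52.6 and 112 CPM in GFP+ and at 1.63, 7.65 and 3.69 CPM in GFP- cells. Neither gene was called for GFP at an adjusted p under 0.05 by edgeR. Of the leukocyte markers, Ptprc (CD45), present on nearly all white blood cells, was at 0.453 CPM or less, and the 13 markers together came to 9.40 to 20.2 CPM in GFP+ and 8.53 to 25.03 CPM in GFP- libraries, led by Cd68. The MHC class II list of 7 genes, which professional antigen-presenting cells express, summed to 1.68 to 12.4 CPM, and its master regulator Ciita was at 0.110 CPM or less. Sex-chromosome transcripts did not match within every pair. In model D the Y-linked Ddx3y was at 42.2 CPM (GFP+) and 64.1 CPM (GFP-), while Xist was at 103 and 2.82 CPM. In model E, where Xist was at 567 and 565 CPM, Ddx3y had 28 reads in GFP+ and 2 in GFP- cells. Values without these pairs are therefore given below, and the part of mixed cells in the results was not tested.

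Per kilobase of exon, the 10 genes spanned a wide range of levels. B2m, the light chain shared by all class I molecules, was highest at 866 ± 289 CPM per kb (SD over 10 libraries). The classical heavy chain genes H2-D1 and H2-K1 followed at 89.5 ± 31.9 and 42.7 ± 25.99 CPM per kb, then tapasin, Tapbp, at 36.1 ± 10.2. Tap2, Psmb8 and Tap1 lay at 7.46 ± 4.34, 4.56 ± 2.92 and 3.14 ± 1.40 CPM per kb. Cd274 (1.72 ± 0.672), Nlrc5 (1.19 ± 0.775) and Psmb9 (0.603 ± 0.368) were lowest. H2-K1 and Tapbp, Tap2 and Psmb8, and Cd274 and Nlrc5 each differed by less than the SD of either gene. The length is the union of all annotated exons, so a gene with long rare isoforms is placed too low.

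The heavy chain genes passed the test between tumour models and not the test of GFP, both described further on. H2-K1 stood at 86.7, 84.7, 116, 254 and 93.7 CPM in the GFP+ libraries of models A to E, and at 76.6, 99.4, 139, 269 and 37.0 CPM in the GFP- libraries. Model D was thus highest in both populations and C second, and the lowest library was GFP- of E. H2-D1 stood at 182, 139, 314, 272 and 208 CPM in GFP+ and at 167, 208, 370, 317 and 131 CPM in GFP- cells. For this gene C and D overlapped and lay above the overlapping A, B and E. Both populations overlapped widely for both genes. H2 genes are a family of near-identical, highly polymorphic copies: reads with several positions (5.99% to 9.74% of all reads) were not counted per gene, and reads of an allele unlike the reference can fail to map. Differences between models in H2 genes are uncertain for this reason, and its part in them was not tested.

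B2m is a single-copy gene outside the MHC, and it also peaked in D. Its levels were 681, 617, 497, 1047 and 624.7 CPM in GFP+ and 767, 917, 531, 1239 and 524 CPM in GFP- cells of A to E. Model C, second or first for the heavy chains, had the lowest mean B2m, although its libraries overlapped those of E. The ratio of B2m to the sum of both heavy chains, per kilobase, went from 3.24 in GFP- cells of C to 9.82 in GFP- cells of A. The ratio carries the uncertainty of the H2 counts.

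Among the genes of peptide supply, model E was the low one. Tap1, which encodes 1 chain of the peptide transporter, was at 12.9, 16.2, 18.5, 22.4 and 7.67 CPM in GFP+ and 12.4, 21.8, 23.5, 30.7 and 6.02 CPM in GFP- cells. Both libraries of E were below all others. Tap2, the partner chain, was at 28.9, 18.1, 48.0, 35.0 and 11.3 CPM in GFP+ and 20.05, 26.1, 59.9, 29.5 and 5.26 CPM in GFP- cells, highest in C and lowest in E. Tapbp, whose product tapasin holds the transporter and the empty heavy chain together, was at 128, 112, 137, 173 and 71.6 CPM in GFP+ and 156, 153, 157, 157 and 66.1 CPM in GFP- cells. Models A to D were close to each other for Tapbp and E stood alone: without E the log2 range between the models dropped from 1.22 to 0.33 and was no longer called (adjusted p = 0.366 by edgeR).

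Of the inducible proteasome subunits, Psmb8 (LMP7) was at 9.45, 11.6, 18.0, 30.5 and 6.71 CPM in GFP+ and 5.91, 16.4, 25.9, 27.3 and 2.33 CPM in GFP- cells, a 13.1-fold span between the lowest and highest library, the widest of the 10 genes. The order of the models was D, C, B, A, E, and only A and E overlapped. Psmb9 (LMP2) kept the same order of means, with A and B overlapping, at far lower counts, 14 to 74 reads per library. It was at 1.44, 1.54, 2.88, 4.06 and 0.724 CPM in GFP+ and 1.44, 1.40, 3.69, 4.13 and 0.759 CPM in GFP- cells. These subunits replace constitutive ones in the immunoproteasome. Per kilobase, Psmb8 was 3.65% of Psmb5 in GFP- cells of E and 76.3% in GFP- cells of D, and Psmb9 was 0.247% to 1.76% of Psmb6. Psmb10, the third inducible subunit, was 22.9% to 85.7% of Psmb7, highest in C. Of the constitutive genes, 0 of 3 passed the test between models, against 54.7% of all genes. Psmb6 was just short of it (adjusted p = 0.0524 by edgeR). The absolute percentages depend on the exon lengths used, whereas their order across libraries does not.

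**Figure D1:**
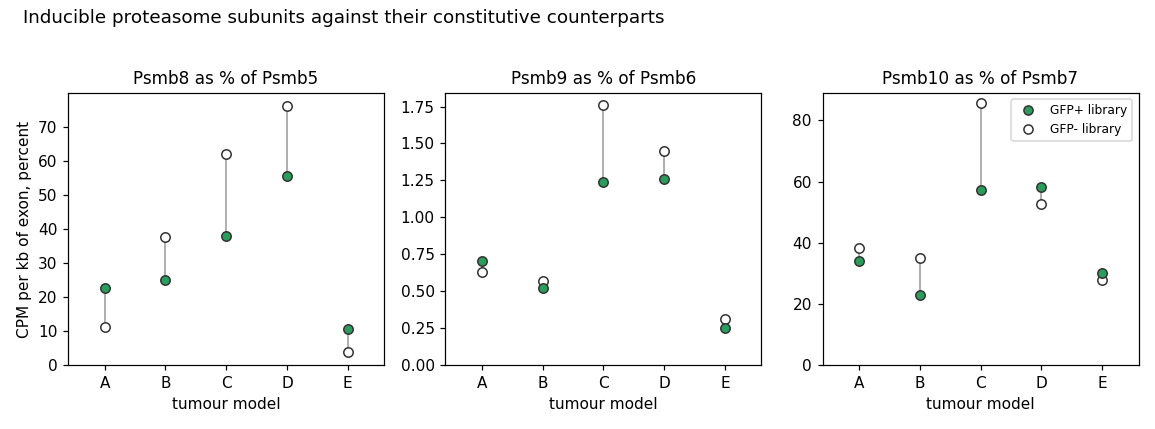
Inducible proteasome subunits as a percentage of the constitutive subunit that each replaces (y axis, CPM per kb of exon) in the 5 tumour models (x axis), with filled points for GFP+ and open points for GFP- libraries and a line joining each pair. Psmb8 runs from 3.65% in GFP- cells of E to 76.3% in GFP- cells of D, and the Psmb9 percentages never exceed 1.76%.

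The regulator Nlrc5 set model D apart. It stood at 9.06, 4.95, 7.71, 18.6 and 9.12 CPM in GFP+ and 7.92, 6.11, 7.43, 25.1 and 4.61 CPM in GFP- cells, so that both libraries of D were above the other 8. The same held for H2-K1, B2m, Tapbp, Psmb8 and Psmb9, 6 of the 10 genes in all, against 4.4% of all genes tested. This pattern was named after the values were seen, and for Tapbp the margin was far below the difference between the populations. Without D the range of Nlrc5 between models dropped from 1.98 to 0.58 on the log2 scale and was no longer called (adjusted p = 0.485 by edgeR). Cd274 had its own order. It was at 5.00, 6.07, 2.82, 9.43 and 5.79 CPM in GFP+ and 5.14, 9.65, 3.41, 9.20 and 5.91 CPM in GFP- cells, highest in D and B and lowest in C. C is the model where Tap2 and H2-D1 were highest.

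**Figure D2:**
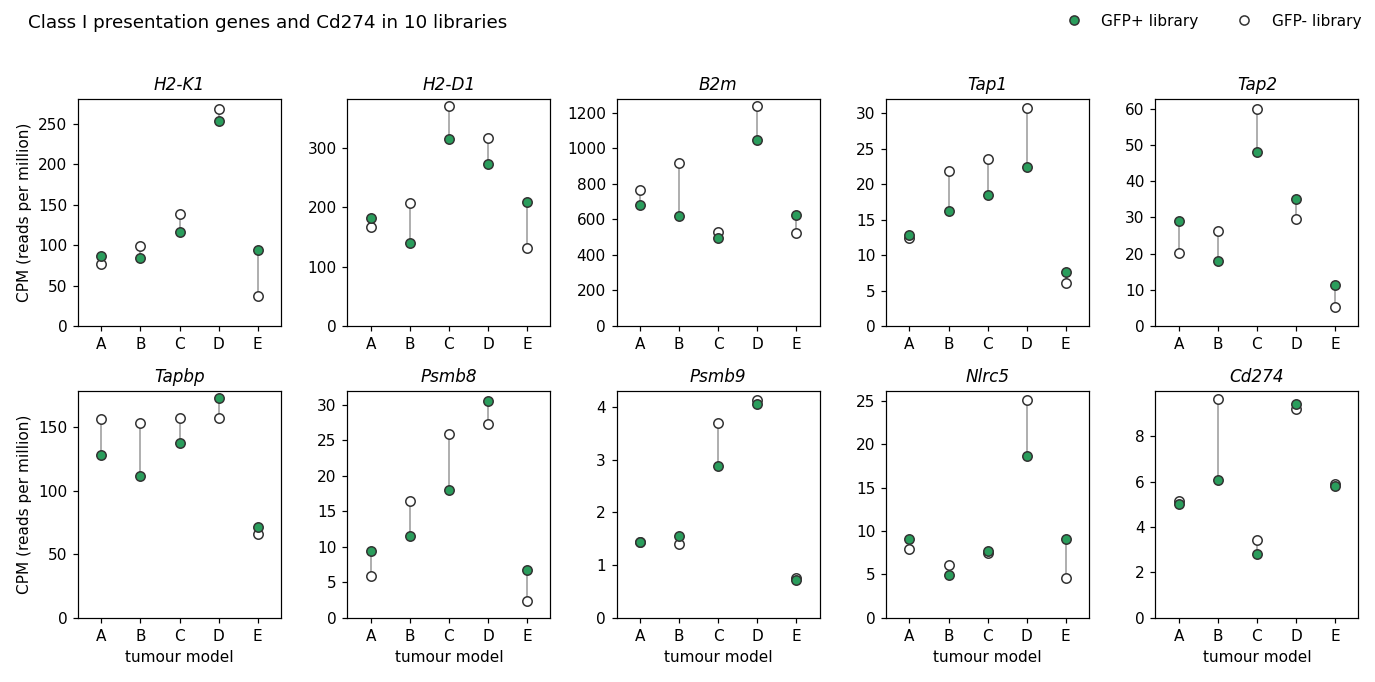
CPM (y axis, from 0, 1 scale per gene) of the 10 genes in the 5 tumour models (x axis), with filled points for GFP+ and open points for GFP- libraries and a line joining each pair. Model D holds the highest library for 7 of the 9 presentation genes, and the filled point lies well above the open one for H2-K1, Tap2, Psmb8 and Nlrc5 in model E.

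The first comparison asked whether each gene varied between the 5 tumour models by more than the populations of a model differed. All 10 genes passed edgeR's quasi-likelihood test of the model term, with adjusted p from 0.00319 (Psmb9) to 0.0344 (H2-D1), as did 54.7% of all 13986 genes tested. The log2 distance between the highest and lowest model was 2.70 for Tap2, 2.65 for Psmb8, 2.41 for Psmb9, 1.99 for H2-K1, 1.98 for Nlrc5 and 1.89 for Tap1. It was 1.58 for Cd274, 1.22 for Tapbp, 1.14 for B2m and 0.99 for H2-D1, and the median over the 10 genes was 1.94, against 0.95 over all genes tested. Model D was the highest of the 5 in the fit for 8 of the 10 genes, against 14.5% of all genes, and C for the other 2 (H2-D1 and Tap2), against 27.4%. Model E was the lowest for 6, against 21.2% of all genes. Leaving out 1 model removed some calls: H2-K1, H2-D1, B2m and Nlrc5 were not called without D, H2-D1, B2m and Cd274 were not called without C, and H2-D1 was not called without A (adjusted p = 0.0517). Tap1, Tap2, Psmb8 and Psmb9 were called in each of these fits. The test compares these 5 models, whose libraries come 2 from each, and does not extend to other tumours.

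**Figure D3:**
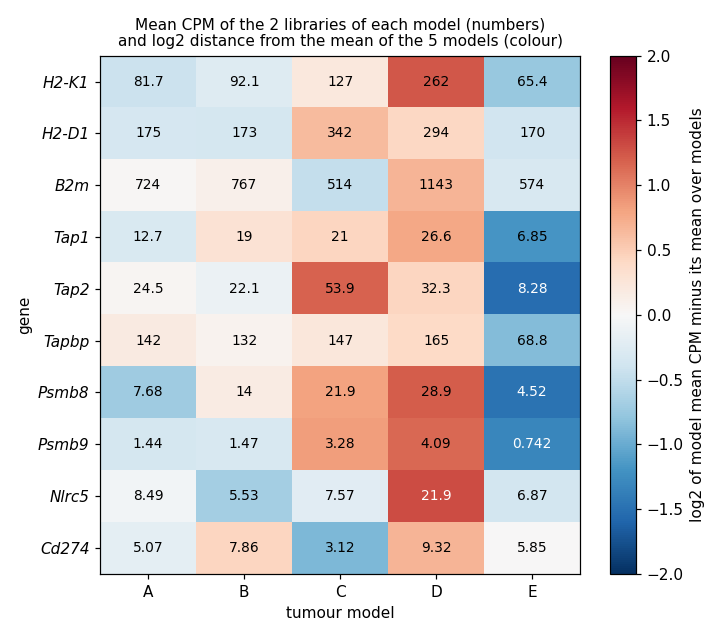
Mean CPM of the 2 libraries of each tumour model (numbers; columns are models, rows are the 10 genes) on a colour scale of the log2 distance from the gene's mean over the 5 models. Model D is red in every row, from 4.09 CPM for Psmb9 to 1143 CPM for B2m, model E is blue for Tap1, Tap2, Psmb8 and Psmb9, and model C is red for Tap2 (53.9 CPM) and blue for Cd274 (3.12 CPM).

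The second comparison, GFP+ against GFP- within the models, is the one the series' design names, between cells with and without the transgene. None of the 10 genes differed by edgeR's quasi-likelihood test with the tumour model as a block, with adjusted p from 0.690 to 0.969, and 0% of the 13986 genes did. At an unadjusted p under 0.05 there were 0 of the 10 genes and 1257 (8.99%) of all genes. DESeq2, which called 195 genes (1.39%), also called 0 of the 10. The fitted log2 difference was below 0 for 6 of the 10 and above 0 for 4 (50.7% of all genes were below 0). Its median was -0.09, against -0.0028 over all genes. The lowest were Cd274 (-0.23, SE 0.17), Tap1 (-0.21, SE 0.15), B2m (-0.20, SE 0.14) and Tapbp (-0.17, SE 0.11). Psmb8 (0.17, SE 0.30), Tap2 (0.14, SE 0.23), H2-K1 (0.14, SE 0.24) and Nlrc5 (0.06, SE 0.22) had values above 0 and the largest standard errors of the 10.

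Apart from Cd274, the pairs of each gene did not all go the same way. In pair B, GFP+ cells were lower for 9 of the 10 genes (47.5% of all genes), the median on the log2 scale being -0.55, and in pair C for 9 of 10 (51.4% of all genes), with a median of -0.28. Pair D had 7 of 10 lower (49.6% of all genes; median -0.11). Pair A was divided, with 6 of 10 higher (49.6% of all genes; median 0.06). In pair E, GFP+ cells were higher for 8 of 10 (50.1% of all genes), with a median of 0.52. The direction counted in each pair was chosen after these values were seen. So was the pattern of lower values in B and C with a higher value in E. That pattern was held by 7 of the 10 genes and by 13.0% of all genes tested, which describes the genes and is not a test.

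Pair E had the largest single differences. H2-K1 was 2.53-fold higher in its GFP+ library (1942 against 683 reads; log2 difference 1.35), Psmb8 2.88-fold (139 against 43 reads; 1.496) and Tap2 2.15-fold (234 against 97 reads; 1.10). These 3 of 10 genes passed a 2-fold difference in pair E, against 5.53% of all genes. Nlrc5 was close at 1.98-fold (189 against 85 reads). H2-D1 was 1.59-fold and B2m 1.19-fold higher. Psmb9 and Cd274 did not share this: their log2 differences in pair E were -0.05 and -0.02. With 1 library of each population, pair E alone has no replicate check. Without pair E, the fitted value was below 0 for all 10 genes (53.5% of all genes), with a median of -0.22. Again 0 passed edgeR's test (smallest adjusted p = 0.637), and 1 of 10 had an unadjusted p under 0.05, as did 1106 of all 14140 genes in that fit. H2-K1, Tap2, Psmb8 and Nlrc5 then changed sign, to -0.16, -0.08, -0.12 and -0.18.

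Some markers of other cells also differed in pair E, in both directions. The 13 leukocyte markers summed to 20.2 and 11.5 CPM (GFP+, GFP-), led by Cd68 at 15.6 and 8.95 CPM. Of the 5 tested, 4 were higher in GFP+ (50.1% of all genes). The largest difference of the 5 was that of Laptm5, with 49 against 14 reads (log2 difference 1.53). Coro1a was lower, at 0.483 and 0.759 CPM. Ptprc had 0 reads in both libraries. The Y-linked Ddx3y had 28 against 2 reads. The 8 endothelial markers summed to 6.13 and 4.66 CPM. Of these, Plvap was at 2.56 and 1.03 CPM and Egfl7 at 2.75 and 3.25 CPM. The part of such cells in the difference of pair E was not tested, and in sorted bulk RNA fewer cells with a transcript and less transcript per cell cannot be told apart.

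**Figure D4:**
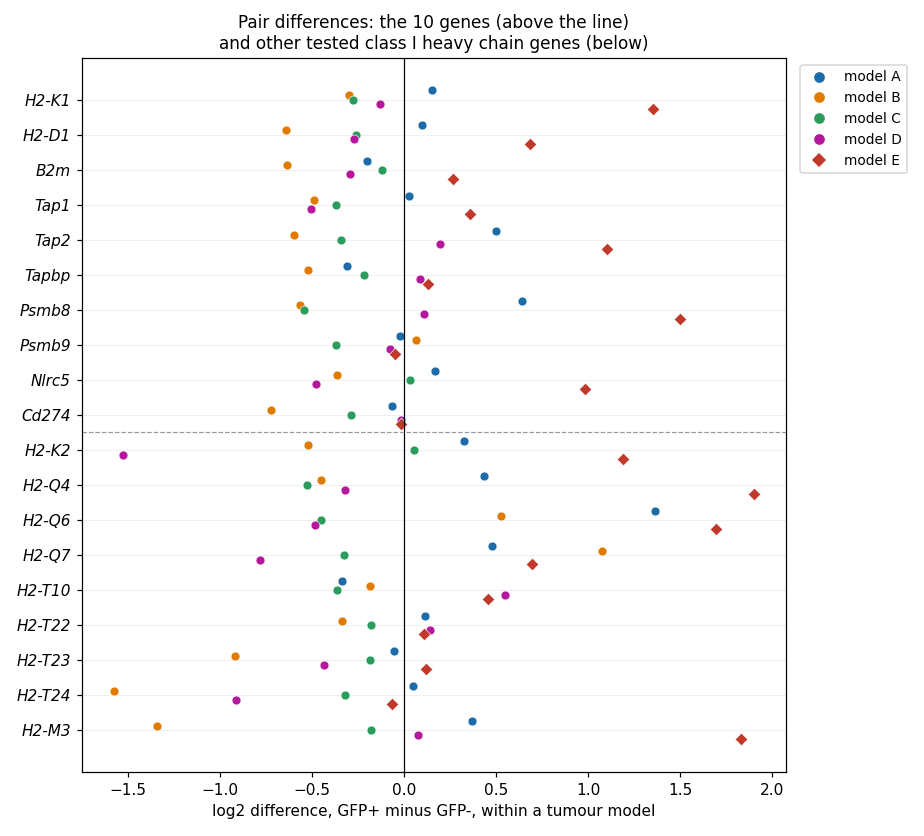
Log2 difference of GFP+ minus GFP- cells within each tumour model (x axis) for the 10 genes and the 9 other tested class I heavy chain genes (y axis), 1 point per model with diamonds for E. The diamonds lie to the right of 0 for 8 of the 10 genes, at 1.35 for H2-K1 and 1.496 for Psmb8, while Psmb9 and Cd274 sit near 0.

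Cd274 was the gene with the most even direction. Its log2 difference was below 0 in 5 of 5 pairs, as for 4.68% of all genes, at -0.07, -0.73, -0.29, -0.02 and -0.02 in A to E. Most of this was pair B, with 6.07 CPM in the GFP+ library against 9.65 CPM. In D the sign rested on the scaling between libraries, since the unscaled levels were 9.43 CPM (GFP+) and 9.20 CPM (GFP-). Without pair B the fitted difference was -0.09. Of the other surface ligands and PD-L1 partners, 7 of 11 were tested, 4 higher and 3 lower in GFP+ cells (median 0.04), with 0 called for GFP, 2 of 7 at an unadjusted p under 0.05 (8.99% of all genes) and 6 of 7 called between models (54.7% of all genes). Pvr, the ligand of the checkpoint receptor TIGIT, differed by 0.46 (SE 0.15, adjusted p = 0.461 by edgeR), and Cd47, the signal that restrains macrophages, by -0.34 (SE 0.12, adjusted p = 0.480) and was lower in 5 of 5 pairs. Pdcd1lg2, which encodes PD-L2, the other ligand of PD-1, was at 0.125 CPM or less in every library.

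The list of other heavy chain genes held 14, of which 9 were tested, 5 higher and 4 lower in GFP+ cells (median 0.01), with 0 called for GFP. Between models 7 of 9 were called (54.7% of all genes), 5 of 9 being highest in D (14.5%) and 7 of 9 lowest in E (21.2%). In pair E, 8 of 9 were higher in GFP+ cells (50.1% of all genes) and 4 of 9 were over 2-fold higher (5.53%). The most abundant, H2-Q4, was at 27.4, 31.4, 27.2, 83.2 and 20.9 CPM in GFP+ and 19.8, 41.1, 38.7, 100.4 and 5.59 CPM in GFP- cells, a 3.75-fold difference in pair E. H2-M3, named after its values were seen, which presents formylated peptides, had 45 against 10 reads there. The smallest p belonged to H2-T24 (-0.63, SE 0.27, adjusted p = 0.558 by edgeR) and H2-T23 (-0.30, SE 0.15, adjusted p = 0.613), the gene of the Qa-1 molecule read by natural killer cell receptors. H2-Q6 and H2-Q7, also named after their values were seen, reached 11.4 to 21.7 CPM in the libraries of D and 3.62 CPM or less in all others.

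The list of other processing and loading genes holds loading chaperones, Erap1, proteasome activator genes and Psmb10. Of its 8 members, the fitted difference was above 0 for 5 and below 0 for 3 (median 0.01), 0 were called for GFP and 4 of 8 were called between models, near the 54.7% of all genes. Calr, the chaperone calreticulin, ran from 612 to 1322 CPM with its lowest values in B. Erap1, which trims peptides in the endoplasmic reticulum, differed by -0.23 (SE 0.12) and Psmb10 by -0.16 (SE 0.17), with adjusted p of 0.609 and 0.825 by edgeR. In pair E, 4 of these 8 had higher values in the GFP+ library and 0 were over 2-fold.

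The regulator list held 16 genes of interferon signalling and class I transcription, 8 higher and 8 lower in GFP+ cells (median -0.04), with 0 called for GFP, 4 of 16 at an unadjusted p under 0.05 (8.99% of all genes) and 11 of 16 called between models (54.7% of all genes). Irf9, part of the type I interferon factor complex, differed by -0.32 (SE 0.11, adjusted p = 0.470 by edgeR). Stat2 (-0.35, SE 0.12) and Ifnar1 (-0.32, SE 0.13), both named after their values were seen, were also lower and under that unadjusted p. Jak1, the most abundant, ran from 135 to 262 CPM. In pair E, 5 of the 16 were higher in GFP+ cells (50.1% of all genes), with a median log2 difference of -0.05 and 0 over 2-fold. Irf1, named after its values were seen, an inducer of class I genes, was among those 5, at 124 against 70.1 CPM.

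Over the 45 pairs of the 10 genes, Pearson's r of log2 CPM ran from -0.28 (Tap2 with Cd274) to 0.94 (Tap1 with Psmb8), with a median of 0.70. Cd274 had a median r of 0.12 with the other 9, and its highest was 0.84, with B2m. B2m in turn was at 0.15 with Tap2 and 0.21 with H2-D1, below its value with Cd274. Of 10910 other genes at 5 CPM or more, those most like the mean profile of the 9 presentation genes were Pi15 (r = 0.95), H2-Q4 (0.94), Plvap (0.94), Fam171a2 (0.93) and Naa80 (0.93). Plvap is one of the endothelial markers, was highest in D and lowest in E, and had 53 reads in GFP+ against 19 in GFP- cells of pair E. Of the 8 endothelial markers 2 were tested. The other, Egfl7, was highest in B and lowest in C and had 57 against 60 reads in pair E. The part of Plvap in the presentation genes' pattern was not tested. Those most like Cd274 were Fras1 (0.97), Kctd12 (0.97), Jkamp (0.97), Serping1 (0.97) and Pianp (0.95). These values describe 10 libraries that share 5 tumour models and their scaling, and carry no test.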

How the data were processed

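The authors deposited 1 table of unnormalized read counts for each library, in STAR's gene count layout. STAR 2.4.2.8 and mm10 are named in the submitters' processing notes. No source used here gives the annotation, kit or strandedness. Column 4 (second strand) held 96.9% to 97.1% of stranded gene reads and was analysed. The lines that name no gene (21.3% to 24.3% of reads) stayed out of library sizes and tests. Symbols came from GENCODE vM21 (46005 identifiers matched, 512 did not).

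Tests ran on all genes with edgeR 4.0.16 in R 4.3.3: TMM scaling, the filterByExpr filter by population (13986 genes kept), model and population as terms, quasi-likelihood F tests, two-sided, Benjamini-Hochberg adjusted p under 0.05. Standard errors came from the F statistic. Pair differences used log2 CPM with a prior count of 2. The series' design text states the pairing; the 2 libraries of a pair deviated together from their population means (correlation 0.628 to 0.867). Alternatives were RLE factors, library totals, no filter, at least 1 CPM in 5 libraries, DESeq2 1.42.0, limma 3.58.1 voom with quality weights, unstranded counts, leaving out each model, and no block. The procedure was tested on simulated data.

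The 10 genes and all lists were chosen with earlier results of these data known. Named from each list were the 2 genes with the smallest p and the most abundant one; further names are marked, and 1 gene that the rule names is not reported here. Lists were described by counts and medians, with no set test.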

Additional observations from a re-analysis of the deposited data

Results flagged for a closer look

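Of 30 groups of 5 values tested for a value far from the others (each of the 10 genes in GFP+ libraries, in GFP- libraries and as pair differences), 2 held one, where chance alone marks about 1 in 20 groups. The pair difference of H2-K1 in model E, 1.35 on the log2 scale, was separated from the next pair by 0.728 of the range of the 5 pairs. The level of Tapbp in GFP- cells of model E, 6.08 on the log2 CPM scale, was separated from the next library by 0.973 of the range. The GFP+ library of E was also the lowest for Tapbp, at 71.6 CPM.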

How the results depend on the processing

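For GFP+ against GFP- cells, 0 genes were called under the main setting, RLE factors, library totals, the stricter filter, unstranded counts, limma voom, no block and without each model (0 to 0), 47 of 25762 with no filter on low counts, and DESeq2 called 195. None of the 10 genes was called in any of these fits. The sign of 5 genes was not stable. Leaving out 1 model gave log2 differences of -0.16 to 0.26 for H2-K1, -0.29 to 0.0599 for H2-D1, -0.0796 to 0.33 for Tap2, -0.12 to 0.37 for Psmb8 and -0.18 to 0.20 for Nlrc5; the values below 0 for H2-K1, Tap2, Psmb8 and Nlrc5 came without E and the value above 0 for H2-D1 without B. With no replicate block, so without the pairing, H2-K1 was at -0.0019, Tap2 at -0.0315, Psmb8 at -0.0685 and Nlrc5 at -0.0795. By limma voom Tap2 was at -0.0203 and Psmb8 at -0.10. The cause was not tested. The block changed no call. The model term was called for 7655 genes, and for 4038 to 7545 without 1 model, the fewest (4038) without C. All 10 genes kept this call under the other scalings, filters and tools. Psmb9, at 14 to 74 reads per library, is limited by depth.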

Other observations

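Of 4 listed ligands of NKG2D, an activating receptor of natural killer cells, 3 were tested and all 3 had values above 0 for GFP+ minus GFP- cells (median 0.44), with 0 called by edgeR and 0 at an unadjusted p under 0.05. Between models 2 of 3 were called (54.7% of all genes), and Ulbp1 was not (adjusted p = 0.254 by edgeR). Ulbp1 was at 16.9, 9.69, 6.73, 16.3 and 8.397 CPM in GFP+ and 10.1, 1.04, 7.15, 7.95 and 6.78 CPM in GFP- cells of A to E (log2 0.91, SE 0.41). Raet1d had 0.110 CPM or less in both libraries of C and up to 5.98 CPM in D. Of 4 class I-like genes outside the MHC, 3 were lower and 1 higher in GFP+ cells (median -0.23), 0 were called for GFP, 1 of 4 had an unadjusted p under 0.05 (8.99% of all genes) and 4 of 4 were called between models (54.7%). Fcgrt, the neonatal Fc receptor that also pairs with beta-2 microglobulin, was at 19.9 against 65.8 CPM in D and 35.1 against 92.4 CPM in B (log2 -0.71, SE 0.31, adjusted p = 0.568 by edgeR), and Hfe, an iron regulator of the same fold, differed by -0.42 (SE 0.18, adjusted p = 0.552) and was lower in 5 of 5 pairs.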
